A study of Caenorhabditis elegans with 39 samples.

Results

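MicroRNAs (miRNAs) of Alg1E larvae were compared with those of N2 larvae at 18, 19 and 20 h after plating, the hours before let-7 rises in N2. The comparison takes 6 of the 39 small RNA libraries of a Caenorhabditis elegans series, 3 of Alg1E and 3 of N2, and all 437 miRNA entries of the count table. Alg1E is a mutant of alg-1 in the N2 background, and N2 is the standard wild type strain. The labels do not spell out the letter E, and the series title concerns phosphorylation of ALG-1 and its binding of miRNAs. Each library came from whole larvae grown at 25 degrees from synchronized first-stage (L1) animals, with no drug or other agent named. There was 1 library per genotype and hour, so the 3 hours served as the replicates. The labels do not say whether the hours came from separate cultures, and a p-value here covers only how far libraries of different hours differed, possibly for technical reasons. The table holds miRNAs only, so the alg-1 allele itself could not be read from it.

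A miRNA is cut from a hairpin precursor as a short duplex of a 5p and a 3p arm. An Argonaute protein such as ALG-1 takes up the duplex, keeps 1 arm as the guide that pairs with target mRNAs, and releases the other, which is usually degraded. In C. elegans larvae lin-4, let-7 and their relatives set the timing of cell fates from stage to stage. Below, the arm of a hairpin with fewer reads in the N2 libraries of 21 to 30 h, which take no part in the comparison at 18-20 h, is called the minor arm and the other the major arm.

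The Alg1E libraries held 2679798 to 2987642 miRNA reads and the N2 libraries 3291819 to 4479656. Levels are given as CPM, the count scaled to a common number of miRNA reads per library with TMM factors, and 1 CPM stands for about 3 to 4 reads. Of the 437 entries, 62 had no read in these libraries and 240 passed the filter on low counts. Reads that fell on no annotated feature took 40.9%, 32.4% and 47.1% of the Alg1E libraries against 25.7%, 27.4% and 32.2% of the N2 libraries at 18, 19 and 20 h. Every Alg1E value lay above every N2 value, by 11.7 points on average (40.1% ± 7.37 against 28.4% ± 3.37, SD, n = 3 each, two-sided exact permutation p = 0.1, the smallest that 3 against 3 allows). That difference moves with genotype in the same libraries as the results below, and its part in them was not tested. On the scale of all 26 Alg1E and N2 libraries, let-7-5p, whose rise closes this window, was at 280, 430 and 531 CPM in Alg1E and at 574, 584 and 624 CPM in N2 from 18 to 20 h. It reached 1992 CPM in N2 at 21 h and 20301 CPM at 23 h, and in Alg1E 417 CPM at 21 h and 1084 CPM at 23 h. Libraries were matched by hour after plating alone. Whether the genotypes were at the same developmental stage at each hour was not tested, here or in the comparison of windows below.

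Most of the miRNAs measured differed between Alg1E and N2 at these hours, and the direction went with the arm. edgeR's quasi-likelihood test called 170 of 240 miRNAs (70.8%) at an adjusted p under 0.05, with hour as a factor. In Alg1E 92 rose (38.3%) and 78 fell (32.5%), 74 and 32 of them by more than 2-fold. The ranges of the 3 Alg1E and the 3 N2 libraries did not overlap for 92 miRNAs that were higher (38.3%) and 76 that were lower (31.7%). Of 96 minor arms tested, 75 rose (78.1%) and 3 fell (3.12%), with a median log2 difference of 1.75. Of 130 major arms, 13 rose (10%) and 72 fell (55.4%), with a median of -0.51. Of 14 miRNAs with no other arm to compare, 4 rose and 3 fell. The median over all 240 was 0.05. A miRNA could pass the filter on low counts through the libraries of a single genotype. Minor arms scarce in both genotypes were therefore not tested, and those scarce in N2 entered only if higher in Alg1E. Among the latter were miR-232-5p (9.98 CPM in Alg1E against 0.833 in N2), miR-252-3p (7.48 against 0.936) and miR-37-5p (35.7 against 2.79). The rise of such arms was favoured by the filter.

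**Figure D1:**
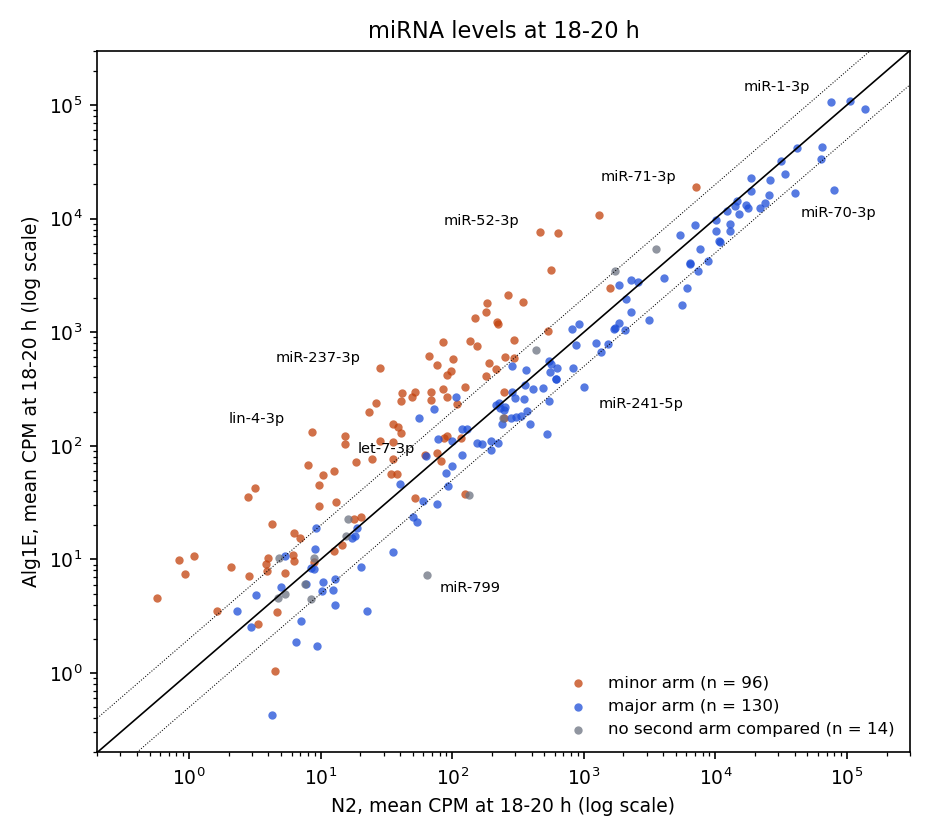
Mean CPM of 240 miRNAs at 18-20 h in Alg1E (vertical axis) and in N2 (horizontal axis), both on log scales, with 1 point per miRNA coloured by arm; the solid line marks equal levels and the dotted lines a 2-fold difference. Most minor arms lie above the line, by a median log2 difference of 1.75, and most major arms a little below it, by a median of -0.51.

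How libraries are scaled shifts minor and major arms alike, and since the differences of major arms are smaller, more of their calls change. TMM assumes that most miRNAs do not change. With TMM computed on the major arms alone the median over all miRNAs moved by 0.44, with total counts by 0.27 and with RLE size factors by -0.14. With TMM from major arms 127 miRNAs were called higher and 38 lower (52.9% and 15.8%), with total counts 109 and 48, and with RLE 85 and 85. Under TMM from major arms the minor arms had 85 higher and 2 lower with a median of 2.19, and the major arms 37 higher and 34 lower with a median of -0.07. Of the miRNAs called with TMM, 85 were called higher and 37 lower under each of these 4 scalings, and 75 of the 78 that fell were below 0 under each of them.

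The 12 largest increases were all minor arms, and each kept its call under all 14 alternative settings. miR-52-3p, whose partner miR-52-5p is among the most abundant miRNAs of the animal, was at 8920, 7352 and 6697 CPM in Alg1E against 583, 391 and 410 CPM in N2 at 18, 19 and 20 h. The lowest Alg1E library lay far above the highest N2 library. The mean was 7656 ± 1143 CPM against 461 ± 106 CPM (SD, n = 3 each), higher by 4.07 on the log2 scale (SE 0.135, edgeR adjusted p = 8.78e-07). On chromosome IV its hairpin spans 14034008 to 14034107 (+ strand, WBcel235) and lies outside annotated protein-coding genes.

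miR-237-3p comes from a hairpin of the lin-4 family, outside annotated protein-coding genes on X at 8154084 to 8154182 (+ strand). It was at 641, 511 and 304 CPM in Alg1E against 32.4, 29.8 and 22.5 CPM in N2, higher by 4.06 on the log2 scale (SE 0.194, edgeR adjusted p = 3.58e-06). In both genotypes 18 h was highest and 20 h lowest, with no overlap between them. lin-4-3p, the minor arm of the founding miRNA, was at 146, 156 and 96.4 CPM in Alg1E against 11.6, 8.33 and 5.68 CPM in N2 (log2 3.98, SE 0.214, edgeR adjusted p = 3.82e-06). The lin-4 hairpin lies in an intron of F59G1.4 on the same strand, on II from 5902254 to 5902347. lin-4-3p stayed a rare RNA in Alg1E, at 0.565%, 0.615% and 0.427% of the level of lin-4-5p, against 0.030%, 0.0274% and 0.0179% in N2.

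The mir-54, mir-55 and mir-56 hairpins follow each other closely on X between 13144691 and 13145094 (- strand), inside an intron of a gene read from the other strand, F09A5.3. Their minor arms rose by different amounts. miR-56-5p was at 8926, 8069 and 5324 CPM in Alg1E against 617, 662 and 631 CPM in N2 (log2 3.51, SE 0.178, edgeR adjusted p = 3.58e-06), and miR-55-5p at 2132, 1797 and 1468 CPM against 215, 153 and 186 CPM (log2 3.28). miR-54-5p had a smaller log2 difference of 1.49. The ranges of Alg1E and N2 were apart for all 3. The other large increases were in miR-39-5p (3.83) and miR-37-5p (3.73) of the mir-35 cluster, miR-87-5p (3.26), miR-72-3p (3.19), miR-244-3p (3.14), miR-44-5p (3.12) and miR-53-3p (3.09). miR-39-5p and miR-37-5p were rare in N2, at 1.23 to 5.62 CPM and 0.987 to 4.96 CPM. Both could pass the filter on low counts through the Alg1E libraries alone.

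**Figure D2:**
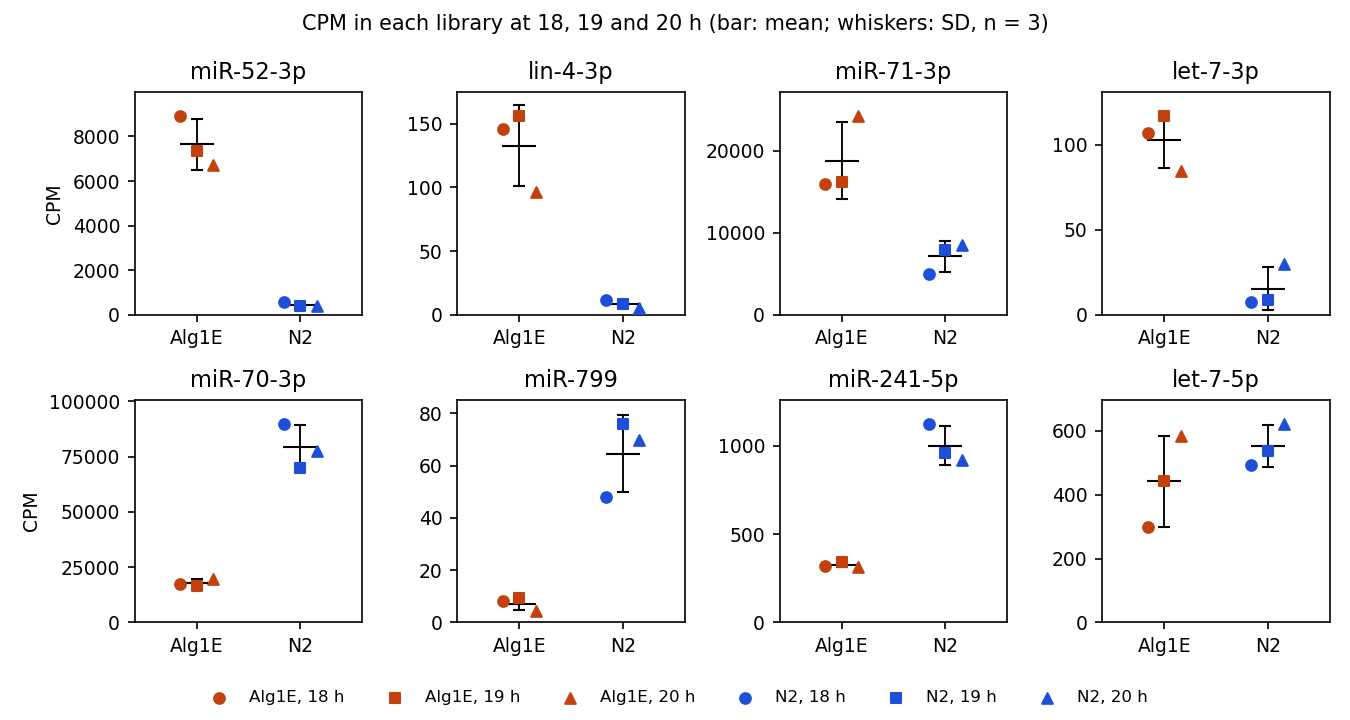
CPM of 8 miRNAs in each library, Alg1E on the left and N2 on the right of each panel, with symbols for 18, 19 and 20 h, bars for the mean and whiskers for the SD (n = 3). Minor arms (top row) lie higher in every Alg1E library than in any N2 library, with miR-52-3p at 6697 to 8920 CPM against 391 to 583 CPM, while miR-70-3p, miR-799 and miR-241-5p lie lower and let-7-5p overlaps.

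Because a minor and a major arm come from the same hairpin and library, their ratio does not depend on scaling between libraries. On the log2 scale limma called this ratio higher in Alg1E for 81 of 93 hairpins (87.1%) and lower for 2 (2.15%) at an adjusted p under 0.05. The median log2 difference was 2.20, which is 4.60-fold, and 77 hairpins rose by more than 2-fold and 25 by more than 8-fold. At the median hairpin the minor arm stood at 13.3% of the major arm in Alg1E and 2.67% in N2. The ranges did not overlap for 82 hairpins that were higher (88.2%) and 2 that were lower (2.15%). Both kinds of hairpin moved upward: with a minor 5p arm 51 of 56 hairpins rose and 1 fell (median 2.29), and with a minor 3p arm 30 of 37 rose and 1 fell (median 2.02). Hairpins entered this test by the mean reads of each arm over both genotypes together. A minor arm scarce in N2 could therefore enter only if higher in Alg1E, and the filter favoured a rise of such ratios. Among those called higher were miR-232, miR-38 and miR-234, with as few as 2 reads of the minor arm in a library.

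The largest increase of the ratio was in miR-237, where the minor arm stood at 53.3%, 30.0% and 18.9% of the major arm in Alg1E against 1.5%, 1.25% and 0.988% in N2 at 18, 19 and 20 h (log2 4.66). In miR-52 it stood at 9.42%, 7.97% and 7.26% in Alg1E against 0.420%, 0.276% and 0.309% in N2 (log2 4.63). In miR-70 it stood at 5.59%, 7.29% and 7.46% against 0.259%, 0.285% and 0.284% (log2 4.61). In all 3 the major arm still held more reads than the minor arm in every library. lin-4 (4.41), miR-56 (4.33), miR-788 (4.16), miR-80 (3.97) and miR-37 (3.96, with as few as 4 reads of the minor arm in a library) complete the 8 largest. In miR-788 the arms came to about equal levels in Alg1E, at 121%, 105% and 93.9%, against 8.24%, 6.70% and 3.77% in N2.

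In miR-235 and miR-797 the order of the arms was reversed, a pair of hairpins chosen after their values were seen. miR-235 is tied to feeding and the L1 arrest, and its minor arm stood at 130%, 148% and 153% of the major arm in the Alg1E libraries against 23.3%, 12.5% and 6.21% in N2 (log2 3.55, SE 0.370, limma adjusted p = 2.50e-06). In miR-797 it stood at 127%, 143% and 164% in Alg1E against 40.4%, 38.4% and 53.8% in N2 (log2 1.72, SE 0.269, limma adjusted p = 7.65e-05). Of the 93 hairpins these were the 2 whose minor arm exceeded the major arm in every Alg1E library and in no N2 library.

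Only 2 ratios fell. In miR-1829a the minor arm stood at 21.4%, 21.4% and 20.9% of the major arm in Alg1E against 52.1%, 44.8% and 32.1% in N2 (log2 -0.99, SE 0.278, limma adjusted p = 0.00521), and the call was lost without the N2 (adjusted p = 0.0679) or the Alg1E (adjusted p = 0.0756) library of 19 h. Reads of miR-1829a, miR-1829b and miR-1829c may be shared, since the 3 are closely related in sequence. In miR-250 it stood at 17.9%, 19.4% and 14.1% in Alg1E against 23.8%, 24.9% and 32.3% in N2 (log2 -0.66, SE 0.289, limma adjusted p = 0.0487). The call on miR-250 was lost without any single library other than that of N2 at 18 h, at adjusted p = 0.0690 to 0.413. The larger change was in its major arm, miR-250-5p, which rose by 0.82. The ratio was not called for 10 hairpins. Among them was miR-34, a miRNA of the stress response, at 9.50%, 8.82% and 10.5% in Alg1E against 8.92%, 10.3% and 9.22% in N2 (log2 0.02, SE 0.271, limma adjusted p = 0.949).

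**Figure D3:**
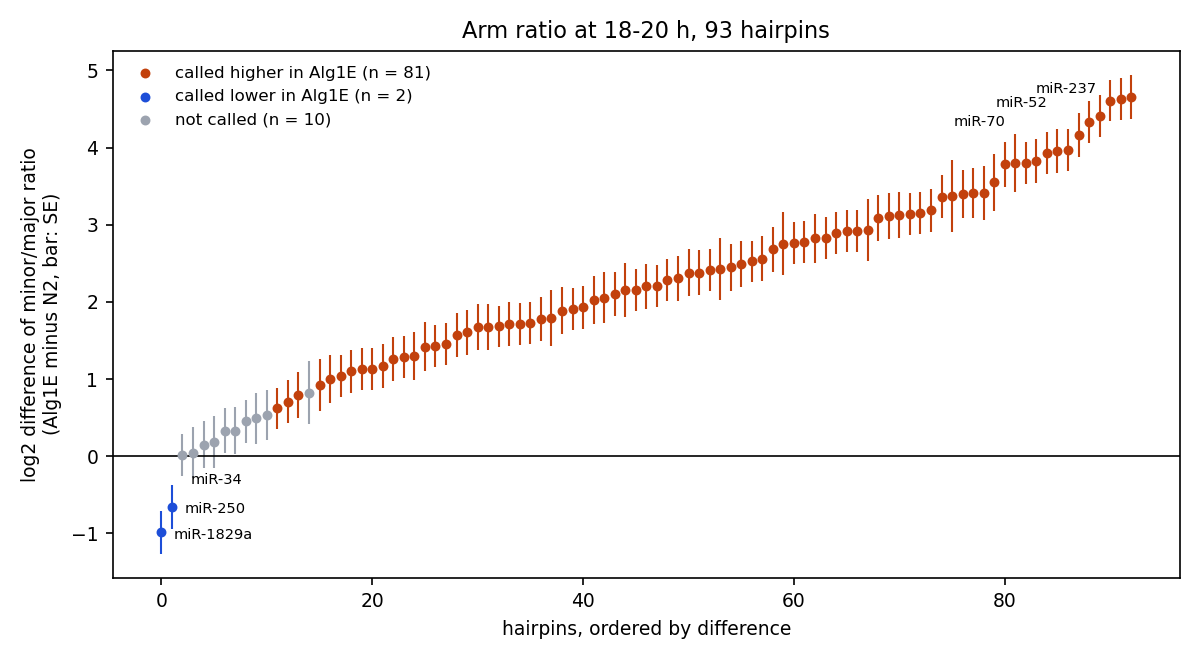
Difference between Alg1E and N2 in the arm ratio (minor over major, log2 scale) for 93 hairpins in order of size, with 1 point per hairpin and bars for the SE (n = 3 libraries per genotype). 81 hairpins lie above 0 and were called, 2 lie below 0 and were called (miR-1829a and miR-250), and miR-34 lies at 0.02.

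Reads were also summed over the 182 hairpins listed with both arms and with a read in N2 at 21-30 h. Minor arms held 9.01%, 8.57% and 8.42% of these reads in Alg1E against 1.61%, 1.73% and 1.76% in N2 at 18, 19 and 20 h. The exact binomial 95% interval of each share reached at most 0.0345 points to either side, for counting error alone. The mean share was 8.67% ± 0.310 against 1.70% ± 0.0815 (SD, n = 3 each), 5.10-fold higher, with every Alg1E library above every N2 library (two-sided exact permutation p = 0.1, the smallest that 3 against 3 allows). Over the 96 hairpins with both arms tested, minor arms summed to 77900 CPM in Alg1E and 18570 CPM in N2, and major arms to 819200 and 1072000 CPM. These sums depend on the scaling, since TMM factors were 1.075 to 1.116 in Alg1E and 0.9041 to 0.9195 in N2. Such factors lower the CPM of Alg1E relative to N2, so the sums do not measure how much RNA major arms lost. The shares of reads above do not depend on the scaling. In 39 of these hairpins the minor arm rose and the major arm fell, in 28 the minor arm rose and the major arm was not called, and in 8 both rose. In 12 the major arm alone fell, in 3 both fell, in 1 the major arm alone rose, and in 5 neither was called. These counts use the calls with TMM and depend on the scaling. With TMM from major arms 34 of all 130 major arms tested were called lower and 37 higher.

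**Figure D4:**
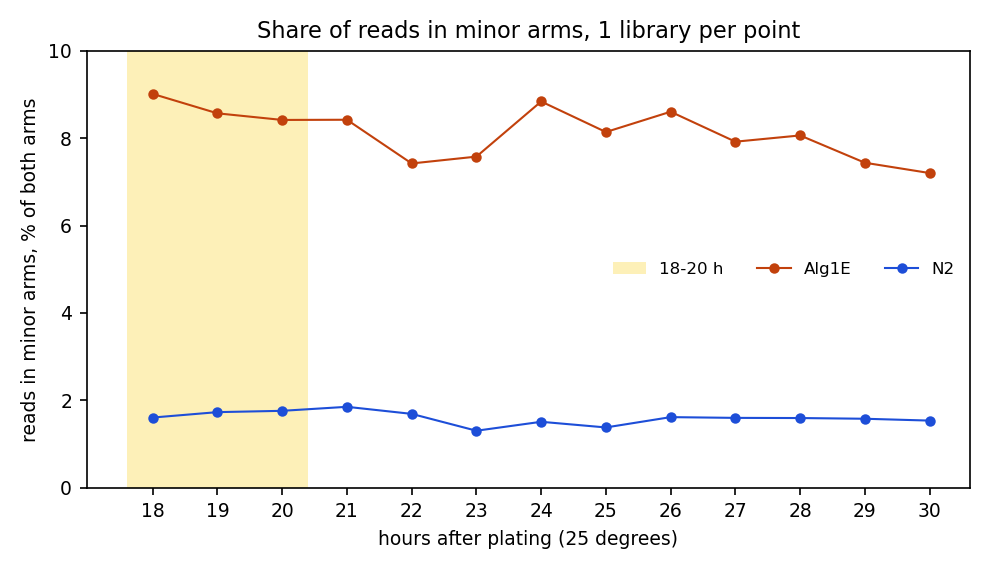
Share of reads in minor arms, in percent of the reads of both arms, for each Alg1E and each N2 library from 18 to 30 h after plating, with the 3 hours compared shaded. Alg1E is at 8.42% to 9.01% in the shaded hours and N2 at 1.61% to 1.76%, and the genotypes do not meet at any later hour; the minor arms were named from the N2 libraries of 21 to 30 h themselves.

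In miR-70 and miR-71 the CPM changes of the minor and the major arm were unequal in size. Those sizes depend on the scaling, and TMM here lowers the CPM of Alg1E relative to N2. miR-70 gained 999 CPM in its minor arm, at 1217 CPM in Alg1E against 218 CPM in N2, and its major arm stood at 17900 against 79189 CPM. miR-71 gained 11660 CPM in its minor arm, and both arms together were at 31930 CPM in Alg1E against 24330 CPM in N2. Loss of miR-71 shortens the life of the worm. miR-71-3p was at 15893, 16233 and 24234 CPM in Alg1E against 4989, 7947 and 8450 CPM in N2 (log2 1.41, SE 0.142, edgeR adjusted p = 6.85e-05), apart in every library. miR-71-5p was at 15918, 10411 and 13088 CPM against 13438, 15316 and 22858 CPM, which overlap (log2 -0.37, edgeR adjusted p = 0.113, and 0.07 with TMM from major arms). With RLE miR-71-5p was called lower (-0.51, adjusted p = 0.000310). Without either library of 18 h miR-71-5p was called lower (-0.73, adjusted p = 8.23e-05, without that of N2 and -0.69, adjusted p = 0.0298, without that of Alg1E).

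The 12 largest decreases were 9 major arms, 1 minor arm and 2 miRNAs with no other arm to compare, and each kept its call under all 14 alternative settings. miR-799 was at 8.09, 9.30 and 4.32 CPM in Alg1E against 47.9, 76.1 and 69.8 CPM in N2, on 13 to 31 reads in each Alg1E library. Its log2 difference was -3.16 (SE 0.295, edgeR adjusted p = 5.49e-05), and the ranges were far apart. Its hairpin spans 8600643 to 8600735 on X (- strand), outside annotated protein-coding genes. miR-1019-5p, from an intron of dyf-5 on I, was at 3.03, 4.8 and 2.66 CPM in Alg1E against 24.1, 17.5 and 26.4 CPM in N2 (log2 -2.66, SE 0.337, edgeR adjusted p = 0.000261).

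The largest decrease in reads was in miR-70-3p, 1 of the 5 miRNAs with most reads, encoded on V at 6665536 to 6665635 (- strand), within an intron of pmp-5 and in its direction. It was at 17439, 16633 and 19628 CPM in Alg1E against 90012, 70038 and 77518 CPM in N2. The Alg1E libraries lay far below every N2 library, and the log2 difference was -2.14 (SE 0.108, edgeR adjusted p = 3.58e-06; -1.70 with TMM from major arms). miR-247-3p fell by 2.06 on the log2 scale, at 86.3, 161 and 137 CPM in Alg1E against 417, 489 and 678 CPM in N2. Its hairpin lies on X from 4756971 to 4757068 (+ strand), next to that of miR-797 (4757109 to 4757197), whose major arm miR-797-5p fell by 0.65 (-0.21 and not called with TMM from major arms). The other large decreases were in miR-248 (-1.86), miR-1829a-5p (-1.73), miR-788-5p (-1.67), miR-5551-5p (-1.59), miR-245-3p (-1.31), miR-65-5p (-1.30), miR-1022-5p (-1.30) and miR-241-5p (-1.61, described below).

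Of the other miRNAs with most reads, miR-52-5p was at 94706, 92234 and 92192 CPM in Alg1E against 138818, 141752 and 132968 CPM in N2 (log2 -0.57, edgeR adjusted p = 0.000408; -0.13 and not called with TMM from major arms). miR-81-3p was at 40961, 45586 and 41412 CPM against 50743, 81098 and 61370 CPM (log2 -0.57, edgeR adjusted p = 0.00293; -0.13 and not called with TMM from major arms). miR-58a-3p overlapped between the genotypes, at 102045 to 112800 CPM in Alg1E and 94393 to 124412 CPM in N2 (log2 0.05, edgeR adjusted p = 0.695). With TMM from major arms miR-58a-3p was called higher (0.49), and with RLE its sign turned (-0.09), so its direction rests on the scaling. Against these, miR-70-3p fell under each of the 4 scalings.

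Of the heterochronic miRNAs, the timers of larval development, 5 of 6 major arms fell and 0 rose, with a median of -0.59, against 55.4% of all major arms and a median of -0.51 over them. With TMM from major arms the median was -0.15 and 2 were called lower, miR-241-5p and miR-48-5p. miR-241-5p, which with miR-48 and miR-84 ends the fates of the second larval stage, was at 320, 344 and 316 CPM in Alg1E against 1126, 956 and 917 CPM in N2. The Alg1E libraries lay close together and far below N2 (log2 -1.61, SE 0.154, edgeR adjusted p = 6.07e-05; -1.17 with TMM from major arms). miR-48-5p was at 5006, 6432 and 7302 CPM against 11762, 10425 and 10437 CPM (log2 -0.81, SE 0.151, edgeR adjusted p = 0.00192; -0.37 and adjusted p = 0.0232 with TMM from major arms). The mir-241 and mir-48 hairpins are neighbours on V, from 14366188 to 14366283 and from 14364412 to 14364509 (- strand).

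The other timing miRNAs differed less. lin-4-5p, needed to leave the first larval stage, was at 25834, 25406 and 22564 CPM in Alg1E against 38567, 30396 and 31693 CPM in N2 (log2 -0.44, SE 0.102, edgeR adjusted p = 0.00544). Its difference vanished with TMM from major arms (-0.00), and without the Alg1E library of 18 h lin-4-5p was not called (-0.39, adjusted p = 0.0883). miR-84-5p (-0.57, edgeR adjusted p = 0.00727) and miR-237-5p (-0.61, edgeR adjusted p = 0.00473) fell, and with TMM from major arms neither was called (-0.13 and -0.17). Without the Alg1E library of 18 h miR-84-5p was not called either (-0.46, adjusted p = 0.129).

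let-7 acts at the change to the adult and had not yet risen. let-7-5p was at 300, 443 and 584 CPM in Alg1E against 494, 537 and 623 CPM in N2, lower at each hour but with overlapping ranges (log2 -0.36, SE 0.173, edgeR adjusted p = 0.0951). It was called lower with RLE (-0.50, edgeR adjusted p = 0.00975) and without the N2 library of 20 h (-0.58, adjusted p = 0.0130) or the Alg1E library of 20 h (-0.54, adjusted p = 0.0348), and with TMM from major arms its sign turned (0.08). Its minor arm let-7-3p was already higher, at 107, 117 and 84.4 CPM in Alg1E against 7.27, 8.87 and 30.1 CPM in N2 (log2 2.92, SE 0.464, edgeR adjusted p = 0.000821). The minor arm stood at 35.6%, 26.4% and 14.4% of let-7-5p in Alg1E against 1.47%, 1.65% and 4.83% in N2, a smaller gap at 20 h than at 18 h. Of the 6 heterochronic minor arms 5 rose, with a median of 2.51, against 78.1% of all minor arms. The one not called was miR-241-3p, at 122, 140 and 89.1 CPM in Alg1E against 96.8, 127 and 125 CPM in N2 (log2 -0.00, edgeR adjusted p = 0.984).

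The wider let-7 family holds let-7 and its listed relatives, whose seeds were not checked here. Of its 8 members 6 fell and 1 rose, against 55.4% and 10% of all major arms. The median was -0.73 (3 lower, 1 higher and a median of -0.29 with TMM from major arms). Besides miR-241-5p, miR-48-5p and miR-84-5p, the members that fell were miR-795-5p (-0.89), miR-1821-3p (-0.88) and miR-794-5p (-0.65). The exception was miR-793, at 646, 662 and 799 CPM in Alg1E against 478, 442 and 388 CPM in N2 (log2 0.69, SE 0.171, edgeR adjusted p = 0.00812; 1.13 with TMM from major arms).

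Counts in the other seed families are also to be read against the 55.4% of major arms that fell and the 10% that rose. In the mir-64 family 5 of 5 fell, with a median of -1.02 (3 and -0.57 with TMM from major arms). They ranged between -1.30 in miR-65-5p and -0.47 in miR-66-5p. In the mir-58 family, related to the growth miRNA bantam of flies, 3 of 4 tested members fell with a median of -0.69 (2 lower and miR-58a-3p higher with TMM from major arms). miR-80-3p was at 30961, 34156 and 35360 CPM in Alg1E against 60430, 67588 and 62276 CPM in N2 (log2 -0.92, SE 0.0895, edgeR adjusted p = 6.07e-05), and its minor arm miR-80-5p at 11178, 10496 and 10636 CPM against 1316, 1225 and 1381 CPM (log2 3.04). The 2 arms of mir-80 thus moved in opposite directions, with each Alg1E library outside the N2 range.

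The mir-51 family, which embryos cannot lose, split into members that fell and members that were not called. miR-54-3p fell by 1.27 on the log2 scale, at 15353, 17102 and 17831 CPM in Alg1E against 37170, 41927 and 42268 CPM in N2, and miR-56-3p (-0.82), miR-55-3p (-0.65) and miR-52-5p (-0.57) fell as well, the last 2 not called with TMM from major arms (-0.21 and -0.13). miR-51-5p (-0.13, edgeR adjusted p = 0.364) and miR-53-5p (-0.07, edgeR adjusted p = 0.560) were not called, and with TMM from major arms both were called higher (0.31 and 0.37). Minor arms rose in 6 of 6 hairpins of this family, against 78.1% of all minor arms.

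In the mir-35 family, needed in embryos, 2 of 8 members rose and 2 fell, with a median of -0.04 (4 higher, 0 lower and 0.40 with TMM from major arms). miR-41-3p was at 160, 293 and 180 CPM in Alg1E against 53.9, 66.7 and 98.2 CPM in N2 (log2 1.52, SE 0.251, edgeR adjusted p = 0.00101), with no overlap. miR-42-3p also rose (0.48), with overlapping ranges of 1891 to 3305 CPM in Alg1E and 1556 to 2454 CPM in N2. miR-36-3p (-0.64) and miR-40-3p (-0.51) fell. The hairpins of mir-35 to mir-41 stand in a row on II from 11537608 to 11538404 (+ strand), in an intron of Y62F5A.9 on the opposite strand. The 6 minor arms of the mir-35 family that could be tested rose, as did 78.1% of all minor arms. Among the 6, miR-37-5p, miR-38-5p and miR-39-5p averaged 2.79, 1.09 and 3.18 CPM in N2. These could pass the filter on low counts through the Alg1E libraries alone, so the filter favoured their rise.

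Smaller families followed no single course. In the mir-44 family miR-247-3p and miR-61-3p (-0.34) fell, and miR-44-3p and miR-45-3p, near-identical RNAs whose reads may be shared, were at 0.00 and -0.01. With TMM from major arms miR-44-3p (0.45) and miR-45-3p (0.43) were called higher and miR-61-3p was not called (0.10). The mir-44 family's median was -0.18 (0.26 with TMM from major arms). In the mir-2 family miR-250-5p rose and miR-797-5p fell, and with TMM from major arms 3 of 4 members were called higher and 0 lower. A family member is here the major arm of its hairpin, and whether that arm carries the family's seed was not checked. The other arm of mir-250, miR-250-3p, was not called (0.17), so the rise of miR-250-5p may not be one of the seed family. The major arms of the mir-72 family were not called, with miR-72-5p at 0.03 (edgeR adjusted p = 0.778), miR-74-3p at -0.09 (adjusted p = 0.540) and miR-73-3p at -0.37 (adjusted p = 0.05003). With TMM from major arms miR-72-5p (0.47) and miR-74-3p (0.35) were called higher, and with RLE miR-73-3p was called lower (-0.50). Both members of the mir-46 family fell (miR-46-3p by 0.51 and miR-47-3p by 0.68), as did miR-75-3p (-0.68) and miR-233-3p (-0.42), and with TMM from major arms none of these 4 was called.

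Mirtrons are introns that are freed by splicing rather than cut by Drosha. Of 4 miRNAs listed as such, 1 rose (miR-62) and 1 fell (miR-1019-5p), against 38.3% and 32.5% of all 240 miRNAs tested. The annotation used places the hairpin of another, miR-1018, outside protein-coding genes, and other kinds of gene were not searched. miR-62 was at 5307, 4272 and 6726 CPM in Alg1E against 3680, 3156 and 3727 CPM in N2 (log2 0.61, SE 0.127, edgeR adjusted p = 0.00349), with no overlap. miR-1018 (0.52, edgeR adjusted p = 0.101) and miR-1020-3p (0.23, edgeR adjusted p = 0.254) were not called with TMM and were called higher with TMM from major arms.

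How many miRNAs rose without being minor arms depends on the scaling. With TMM they were 13 major arms and 4 miRNAs with no other arm to compare, and with RLE 8 and 4. With total counts they were 23 and 5, and with TMM from major arms 37 and 5. The 13 major arms called higher with TMM included 8 that were called under each of the 4 scalings: miR-1-3p, miR-1824-5p, miR-239b-5p, miR-250-5p, miR-360-5p, miR-41-3p, miR-42-3p and miR-8206-3p. miR-250-5p was at 433, 550 and 519 CPM in Alg1E against 272, 280 and 295 CPM in N2 (log2 0.82, SE 0.153, edgeR adjusted p = 0.00198), with no overlap. miR-251, which has no other arm in the table, rose by a log2 difference of 0.98, at 4433, 3179 and 2787 CPM in Alg1E against 1773, 1872 and 1538 CPM in N2.

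miR-1-3p, the miRNA of body wall and pharyngeal muscle, was at 98862, 89477 and 131044 CPM in Alg1E against 70250, 76833 and 80115 CPM in N2. Every Alg1E library lay above every N2 library (log2 0.47, SE 0.108, edgeR adjusted p = 0.00518). It was not called by DESeq2 (0.34, adjusted p = 0.0710), without the N2 library of 20 h (0.27, adjusted p = 0.219) or without the Alg1E library of 18 h (0.45, adjusted p = 0.139). In RNA from whole animals a change in the number of cells of a type and a change in RNA per cell cannot be told apart. The intestinal miR-60-3p overlapped, at 15186 to 31150 CPM in Alg1E and 23547 to 30517 CPM in N2 (log2 -0.33, edgeR adjusted p = 0.0597; 0.11 with TMM from major arms). miR-60-3p was called lower with RLE (-0.46, adjusted p = 0.000944) and without the library of 20 h of N2 (-0.59, adjusted p = 0.00214) or of Alg1E (-0.55, adjusted p = 0.000171). Of the neuron miRNAs, lsy-6-3p, which makes a left taste neuron differ from its right partner, was at 110, 99.6 and 134 CPM in Alg1E against 90.9, 69.6 and 72.3 CPM in N2 (log2 0.56, SE 0.184, edgeR adjusted p = 0.0259). lsy-6-3p was not called with RLE (0.43), by DESeq2 (0.43) or in the fit of all 26 libraries (0.35), nor without the library of 19 h of N2 (adjusted p = 0.0735) or Alg1E (0.107) or that of 20 h of N2 (0.303) or Alg1E (0.226). miR-124-3p, a sensory neuron miRNA, differed by 0.09 (edgeR adjusted p = 0.610; -0.04 with RLE, and called higher at 0.54 with TMM from major arms) and miR-791-3p by -0.04 (edgeR adjusted p = 0.924; 0.40 with TMM from major arms). miR-791-3p is the minor arm of its hairpin. Its major arm miR-791-5p differed by -0.19 (edgeR adjusted p = 0.487) and was not called with TMM from major arms either (0.25). These markers are single miRNAs, and the part of a change in tissue makeup in the other results was not tested.

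Of 7 miRNAs known from studies of lifespan and stress, 2 rose and 3 fell, against 10% and 55.4% of all major arms, with a median of -0.37 (0.07 with TMM from major arms). miR-239b-5p was at 145, 268 and 388 CPM in Alg1E against 52.9, 76.6 and 193 CPM in N2 (log2 1.42, SE 0.200, edgeR adjusted p = 0.000445). It was higher in Alg1E at each hour and highest at 20 h in both genotypes, so that the ranges overlap. miR-239a-5p (0.38) rose too (0.25 and not called with RLE), and reads of these near-identical relatives may be shared. miR-228-5p fell by 1.27, miR-246-3p by 0.92 and miR-238-3p by 0.73 on the log2 scale, and miR-246-3p was not called with TMM from major arms (-0.48). miR-238-3p was at 7087, 8379 and 7917 CPM in Alg1E against 10823, 13637 and 14481 CPM in N2, so that relatives within the mir-238 family moved in opposite directions.

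The difference between Alg1E and N2 at 18-20 h was then set against that at later hours, in 1 model of all 26 Alg1E and N2 libraries with an interaction of genotype and window. Levels in these paragraphs are on the scale of the 26 libraries. Against 21-30 h, edgeR called 1 of 267 miRNAs (0.375%), with 24 at an unadjusted p under 0.05. That 1 was miR-85-3p, which was rare and alike in both genotypes at the start, at 10.4, 6.98 and 16.9 CPM in Alg1E and 9.22, 7.31 and 12.6 CPM in N2. From 21 to 30 h miR-85-3p ranged from 14.2 to 2161 CPM in Alg1E (median 238) and from 31.2 to 5889 CPM in N2 (median 1099). The log2 difference was 0.19 early and -1.83 later, apart by 2.02 (SE 0.315, edgeR adjusted p = 0.00271), and the call was lost without the N2 library of 20 h (adjusted p = 0.0648) or the Alg1E library of 20 h (adjusted p = 0.0517). The mir-85 hairpin lies on II from 8393553 to 8393658 (+ strand), in an intron of F49E12.8 on the opposite strand.

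The arm ratio was compared between the windows in the same way. The test is two-sided, so it does not depend on which arm is called minor. limma called the arm ratio different between the windows for 0 of 95 hairpins (0%), with 6 at an unadjusted p under 0.05. Without the N2 or the Alg1E library of 20 h it called 2, miR-239a and miR-240. A p that misses the threshold does not show that the windows are alike.

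Against 26-30 h alone, with the libraries of 21 to 25 h left out, 35 of 258 miRNAs (13.6%) differed between the windows, 13 with the early difference above the late one and 22 with it below, and 71 had an unadjusted p under 0.05. This count depends on the scaling and on each early library. It became 21 (17 above and 4 below) with TMM from major arms and 19 (15 and 4) with total counts, and 0 without the N2 library of 18 h or that of 20 h. It was 3 without the N2 library of 19 h or the Alg1E library of 18 h or 19 h, and 4 without the Alg1E library of 20 h. miR-85-3p, miR-1020-5p and miR-1022-5p were the 3 called in each of these 4 cases. Against 21-25 h the count was 1 of 258 (0.388%), again miR-85-3p.

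miR-360-5p was higher in Alg1E early, at 131 to 218 CPM against 43.3 to 81.6 CPM in N2, and lower late, at 5.25 to 76.0 CPM against 104 to 252 CPM (log2 1.45 and -3.09, edgeR adjusted p of the difference 0.0226). miR-1020-5p (1.2 and -1.60), miR-251 (0.77 and -0.74) and the mirtron miR-62 (0.39 and -1.47) also lay above N2 early and below it late. In the other direction, miR-1022-5p was lower in Alg1E early, at 24.8 to 32.4 CPM against 66.0 to 91.4 CPM in N2, and overlapped late, at 22.0 to 46.0 CPM against 23.0 to 42.8 CPM (log2 -1.51 and 0.24, edgeR adjusted p of the difference 0.00884). miR-61-3p (-0.55 and 0.65), miR-238-3p (-0.94 and 0.01), miR-54-3p (-1.48 and -0.44) and the minor arm miR-228-3p (2.31 and 3.54) completed the 5 with the smallest p in that direction, and of these miR-228-3p was not called with TMM from major arms. Of the heterochronic miRNAs, miR-48-5p alone was called with TMM, at -1.03 early and -0.04 late. It was not called with TMM from major arms, with total counts or without any 1 of the 6 early libraries. Arm ratios were called for 3 of 98 hairpins against 26-30 h, those of miR-1020, miR-360 and miR-797, with 28 at an unadjusted p under 0.05.

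**Figure D5:**
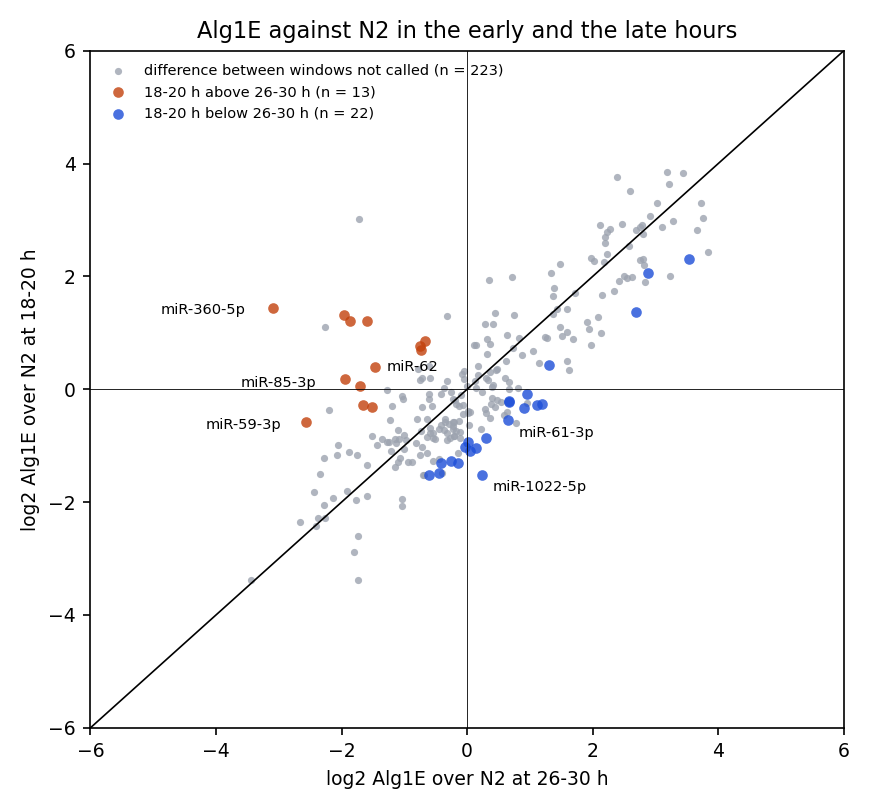
log2 difference between Alg1E and N2 at 18-20 h (vertical axis) and at 26-30 h (horizontal axis) for 258 miRNAs, with 1 point per miRNA; the diagonal marks equal differences. 13 miRNAs called above the diagonal include miR-360-5p, miR-85-3p and miR-62, and 22 called below it include miR-1022-5p and miR-61-3p.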

How the data were processed

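Per the labels' protocols, small RNA of whole larvae was sequenced after preparation with the QIAseq miRNA Library Kit. The submitters' processing notes name HTSeq, SAMtools 1.9, Bowtie 1.2.2 and cutadapt 2.3, and the build ce11. Settings, including strand and unique molecular identifiers, were not given in the sources used here, so PCR copies may be among the reads, and near-identical miRNAs, or hairpins on opposite strands of a site, may share reads. The values deposited by the authors are raw whole-number counts for each mature miRNA, not normalized. The 5 HTSeq summary entries that name no miRNA entered neither library sizes nor tests. They held 32.4% to 47.1% of the reads of an Alg1E library and 25.7% to 32.2% of an N2 library as reads with no feature, and at most 0.0760% as ambiguous reads.

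edgeR 4.0.16 in R 4.3.3 tested counts with its quasi-likelihood test after filterByExpr and TMM, in a model of hour as a factor plus genotype over the 6 libraries. The arm ratio (minor over major, on the log2 scale, after adding 0.5 reads to each arm) was tested with limma 3.58.1. It was taken for 93 of the 190 hairpins listed with both arms, those in which each arm averaged 10 reads or more over the 6 libraries. Windows were compared by a genotype by window interaction. All tests are two-sided, with Benjamini-Hochberg adjustment over all miRNAs or hairpins tested and a threshold of 0.05. Shares were compared by exact permutation. Log2 differences are Alg1E over N2. Libraries of the same hour deviated together (correlations of 0.196, 0.194 and 0.274 over 240 miRNAs), and no pair of libraries was alike within counting noise. Hairpin positions come from the WBcel235 annotation, which is ce11, and host genes were sought among its protein-coding genes only. The scripts were tested on simulated counts.

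Named miRNAs are the 12 largest called rises and falls that averaged 10 CPM or more and kept their direction at 3 of 3 hours, a set of timing and tissue miRNAs and the 5 with most reads. For the arm ratio they are the 8 largest called rises and each called fall, and between windows the 5 smallest p in each direction. Members of the lists are described beside these. The comparison, the lists and the rules were chosen with earlier results of these data known. Alternatives were other scalings, DESeq2 1.42.0, no filter, other hour terms, other windows and leaving out each library. Those on the 26-30 h window were chosen after seeing the data.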

Additional observations from a re-analysis of the deposited data

Results flagged for a closer look

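miR-85-3p differed between Alg1E and N2 by unlike amounts early and late. Its log2 difference at 18-20 h lay 2.02 above that at 21-30 h (SE 0.315, edgeR adjusted p = 0.00271), from levels of 6.98 to 16.9 CPM in Alg1E and 7.31 to 12.6 CPM in N2 at 18-20 h. The interaction of genotype and window marked it out of 267 miRNAs, and the call was lost without the N2 or the Alg1E library of 20 h.

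Reads that fell on no annotated feature, which enter no comparison of miRNAs, took a mean of 40.1% of the Alg1E libraries and 28.4% of the N2 libraries. They stood out because every Alg1E library lay above every N2 library, with a lowest value of 32.4% in Alg1E and a highest of 32.2% in N2.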

How the results depend on the processing

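The 12 largest increases and the 12 largest decreases kept their direction and call under all 14 alternatives. Over all named miRNAs, 491 of the values obtained under alternatives kept direction and call, 22 lost the call, 17 gained one and 16 changed sign, and the cause was not tested. miR-124-3p turned to -0.041 with RLE, -0.0412 with DESeq2 and -0.1136 with all 26 libraries. miR-58a-3p turned to -0.0876 with RLE and with DESeq2 and to -0.1603 with all 26 libraries, and ranged from -0.0823 to 0.1447 without 1 library. miR-791-3p turned to 0.2392 with total counts and 0.4018 with TMM from major arms, and ranged from -0.3966 to 0.2211 without 1 library. With TMM from major arms let-7-5p turned to 0.0803, miR-71-5p to 0.0666 and miR-60-3p to 0.1136. The 78 miRNAs called lower were 48 with total counts and 38 if TMM used major arms only, all among the 78.

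Without 1 library, 71 to 90 miRNAs were called higher and 63 to 77 lower, and arm ratios called higher numbered 75 to 81 and those called lower 0 to 2. Against 21-30 h, 0 to 1 miRNAs and 0 to 2 arm ratios were then called, and against 26-30 h 0 to 4 miRNAs. The 1 miRNA and 0 arm ratios called against 21-30 h became 35 and 3 against 26-30 h, and the 35 were 19 with total counts and 21 if TMM used major arms only. Without an hour term, that is without the block that pairs libraries, 86 miRNAs were called higher and 72 lower, and the arm ratio calls stayed at 81 and 2. With 3 libraries per genotype the exact tests cannot go below p = 0.1, and intervals cover counting error only.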
